A study of Homo sapiens with 12 samples.

Results

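Noncoding RNA genes, 10 in all, were followed in differentiating SH-SY5Y cells: RN7SL1 and RN7SL2 (7SL RNA), RN7SK (7SK RNA), RMRP and RPPH1 (the RNAs of RNase MRP and RNase P), the Y RNA genes RNY1, RNY3 and RNY4, and the vault RNA genes VTRNA1-1 and VTRNA1-2. They were taken by symbol from a list, 10 of the 55765 symbols counted. No measured value entered the rule, but the list was chosen with earlier results of these data known. SH-SY5Y is a human neuroblastoma line, a single established line, whose cells turn neuron-like with all-trans retinoic acid (ATRA). Ribosomal RNA-depleted total RNA was sequenced from 12 samples in 4 groups of 3. The co-treatment controls had ATRA (10 μM) for 7 days, and the co-treated cells had ATRA for 7 days with H2O2 present throughout. The pre-treatment controls had ATRA for 7 days without earlier H2O2, and the pre-treated cells had H2O2 for 72 h before their 7 days of ATRA. All 12 samples, controls included, were thus exposed to ATRA, and the H2O2 dose is given as 10 mM in the deposited design text but as 10 μM in the methods.

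All 10 RNAs are made by RNA polymerase III and none encodes a protein. 7SL RNA is the scaffold of the signal recognition particle, which brings ribosomes making secreted and membrane proteins to the endoplasmic reticulum. 7SK RNA, with LARP7, MEPCE and HEXIM proteins, holds the elongation kinase P-TEFb in an inactive store. RPPH1 is the catalytic RNA of RNase P, which removes the leaders of tRNA precursors, and RMRP is its relative in RNase MRP, which acts on ribosomal RNA precursors. Y RNAs are small stem-loop RNAs bound by Ro60 and La, and vault RNAs sit in the vault, a large hollow ribonucleoprotein particle built mainly of MVP.

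Positions on hg19 are given for 6 of the 10 genes. The sequences printed were read from hg19 on the strand of each gene, with T for U. RN7SK lies at chr6:52860418-52860748 (plus strand, 331 bases) and RMRP at chr9:35657751-35658014 (minus strand, 264 bases). RNY4 and RNY1 stand close together at chr7:148660407-148660502 (plus strand) and chr7:148684228-148684340 (minus strand). VTRNA1-1 and VTRNA1-2 lie at chr5:140090860-140090958 and chr5:140098510-140098598, both on the plus strand. RN7SL1 falls in an intron of RPS29 on the opposite strand. RN7SL2 lies wholly within an exon of an unnamed long noncoding RNA on its own strand, as does VTRNA1-1, and VTRNA1-2 lies in an intron of the same long noncoding RNA. Within 1 kb but not overlapping are GSTA4 (near RN7SK), CCDC107 and ARHGEF39 (near RMRP), GHET1 (near RNY1) and a second unnamed long noncoding RNA (near RN7SL2). The annotation behind these positions is newer than hg19 itself, and whether the authors' counting annotation held the same overlaps is not stated.

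The 7SK sequence is shown because its RNA took the most reads. Its capitals mark GATC (GAUC in the RNA), a short repeat near the 5′ end that is known as a binding element of HEXIM proteins. There were 3 copies in RN7SK, all in its first 300 bases, which are printed here, and 2.25% of 35116 promoter windows of 300 bases held as many.
RN7SK: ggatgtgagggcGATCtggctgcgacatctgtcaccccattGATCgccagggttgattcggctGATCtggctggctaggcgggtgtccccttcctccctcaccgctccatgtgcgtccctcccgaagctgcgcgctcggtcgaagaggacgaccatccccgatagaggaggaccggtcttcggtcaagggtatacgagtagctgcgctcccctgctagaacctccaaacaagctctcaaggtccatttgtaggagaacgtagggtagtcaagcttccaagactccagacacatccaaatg

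RNY1 and RNY4 are shown for what these Y RNAs share. Their longest common stretch, in capitals, was the first 11 bases of both, which belong to the stem formed by the ends of a Y RNA.
RNY1: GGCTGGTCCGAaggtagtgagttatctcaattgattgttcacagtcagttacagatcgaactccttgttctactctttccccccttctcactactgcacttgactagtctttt
RNY4: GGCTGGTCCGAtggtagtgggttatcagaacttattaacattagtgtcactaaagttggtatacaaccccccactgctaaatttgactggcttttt

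VTRNA1-1 and VTRNA1-2 are shown because they stayed at or near 0 reads in every library. The capitals mark GTTCGA, the core of the internal B box of genes of this type, searched on both strands. VTRNA1-1 and VTRNA1-2 held 1 match each, as did RNY1 (on the opposite strand), RN7SK, RMRP and RNY4 held none, and 0.797% of 35116 promoter windows, cut to the same 99 bases, held at least 1.
VTRNA1-1: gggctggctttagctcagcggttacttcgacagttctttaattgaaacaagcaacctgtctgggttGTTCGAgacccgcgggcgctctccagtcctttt
VTRNA1-2: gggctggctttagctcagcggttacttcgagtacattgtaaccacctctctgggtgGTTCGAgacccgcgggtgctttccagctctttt

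The 60 bases before the start are given for RN7SK, RMRP and RNY1, with TATA in capitals where it lay 40 to 16 bases before the first base. RN7SK and RMRP held it there, as did RNY4, VTRNA1-1 and VTRNA1-2 (5 of 6 genes searched), whereas RNY1 did not. Among promoter windows, 6.24% held TATA in this interval.
RN7SK upstream: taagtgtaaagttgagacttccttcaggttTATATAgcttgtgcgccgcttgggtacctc
RMRP upstream: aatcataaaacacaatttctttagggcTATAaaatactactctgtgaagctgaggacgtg
RNY1 upstream: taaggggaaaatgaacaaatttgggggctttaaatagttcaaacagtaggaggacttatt

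Each library held 27576276 to 98287391 reads counted on genes. Among the pre-treatment controls, replicate 3 stood apart from replicates 1 and 2. In pre-treatment control replicate 3 the 10 RNAs together took 15.6% of gene reads, against 1.33% and 2.48% in control replicates 1 and 2 and 11.7% to 13.1% in the pre-treated libraries. Reads outside any gene, per gene read, were 0.200 in that library, 0.800 and 0.830 in the other controls and 0.343 to 0.462 in the pre-treated libraries, and small nucleolar and Cajal body RNAs took 1.13%, 0.155% and 0.213%, and 0.921% to 1.27% of gene reads. In the co-treatment libraries the 10 RNAs took 4.62% to 11.3% of gene reads. Reads outside any gene were 0.263 to 0.429 per gene read there. Each pre-treatment control lay outside both of these ranges, replicates 1 and 2 on one side and replicate 3 on the other. Which of these controls is the unusual one was not tested. Between control replicate 3 and replicates 1 and 2, the chi-square per degree of freedom of their counts was 545 and 499. The other pairs of replicates had 24.8 to 147. The pre-treatment tests of the 10 RNAs are therefore given with all 6 libraries and with the 5 that leave this control out, and the part of these library differences in the results was not tested. The 6 noradrenergic SH-SY5Y markers were above 0 in every library, with a summed level of 953 to 2424 RPM (reads scaled to all gene reads of the library).

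RN7SK was the most counted gene in nearly every library, with a rank of 1 or 2 among all genes, and RPPH1 (ranks 2 to 17), RN7SL1 (2 to 16), RN7SL2 (3 to 21) and RMRP (5 to 31) followed. RNY1 ranked between 5479 and 12712. Per length, the median level over the 12 libraries was 137500 RPM per kb for RN7SK, 48990 for RN7SL1, 33690 for RN7SL2, 26220 for RMRP, 134.9 for RNY1, 7.38 for RNY3 and 2.15 for RNY4. RN7SK therefore stood 1020-fold above RNY1 per length. The RNAs at this low level are also the short ones (96 to 113 bases for the Y RNAs against 264 to 331 for RMRP, 7SL and 7SK), and the part of RNA length in these counts was not tested. RN7SK lay above RN7SL1 in 12 of 12 libraries, RMRP above RNY1 in 12 and RNY1 above RNY3 in 12. Other neighbours in the order changed places in some libraries: RN7SL1 exceeded RN7SL2 in 10 of 12 libraries, RN7SL2 exceeded RMRP per length in 11 and RNY3 exceeded RNY4 in 9. RPPH1, for which no length was at hand, is left out of this order.

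The co-treatment comparison asked what H2O2 during differentiation did to these RNAs. No difference between treated and control cells exceeded the spread between libraries for any of them. RN7SK took 2.45%, 4.08% and 6.36% of gene reads in control replicates 1 to 3 and 2.79%, 6.55% and 3.70% in the co-treated cells. RN7SL1 took 0.752%, 1.44% and 1.32% in controls and 0.451%, 1.47% and 1.64% in co-treated cells. RPPH1 took 0.751%, 1.27% and 1.42% in controls and 0.595%, 1.70% and 1.32% in co-treated cells. The groups overlapped for each of these RNAs, and the library of replicate 1 was the lowest of its group in both groups. RN7SL2 took 0.459% to 1.05% in controls and 0.418% to 1.01% in co-treated cells, and RMRP 0.261% to 0.881% and 0.358% to 0.703%. Within the control group alone the highest library exceeded the lowest 2.60-fold for RN7SK and 3.37-fold for RMRP.

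Treated and control groups were compared over all genes with edgeR's quasi-likelihood test, which called a gene in the co-treatment experiment at an adjusted p (FDR) under 0.05 and an absolute log2FC above 0.6. The log2FC was -0.04 for RN7SK (standard error 0.36), -0.04 for RN7SL1 (0.39), -0.20 for RN7SL2 (0.34), -0.26 for RMRP (0.38) and 0.02 for RPPH1 (0.34). Of the Y RNAs, RNY1 had -0.37 (0.28) and RNY3 -0.71 (0.62). Of the 10 RNAs, 7 passed the filter on low counts and 0 were called, where 0.598% of all 22089 genes tested were called. None had an unadjusted p under 0.05 (8.15% of all genes), none was called by DESeq2, limma-voom or edgeR's exact test, and the smallest FDR of the quasi-likelihood test was 0.828 (RNY1). The 95% intervals still held changes of some size, from -0.84 to 0.75 for RN7SK and from -1.07 to 0.56 for RMRP. Differences within these bounds were thus not excluded at this replication, and the bounds are not limits of detection. Several signs turned when 1 library was left out, among them RN7SK (0.41 without control replicate 3) and RN7SL1 (0.35 without treated replicate 1).

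The pre-treatment comparison asked the same of H2O2 given before ATRA. RN7SK took 0.717%, 1.38% and 6.09% of gene reads in control replicates 1 to 3 and 5.02%, 5.18% and 5.60% in the pre-treated cells. RN7SL1 took 0.173%, 0.203% and 2.67% in controls and 2.22%, 2.37% and 1.93% in pre-treated cells. RN7SL2 took 0.157%, 0.310% and 2.68% in controls and 1.88%, 2.10% and 1.23% in pre-treated cells. Control replicates 1 and 2 were the lowest of the 12 libraries for these 3 RNAs, and control replicate 3 was above all pre-treated libraries for each of them. RPPH1 took 0.164%, 0.281% and 2.95% in controls and 2.51%, 2.63% and 2.05% in pre-treated cells. RMRP took 0.119%, 0.301% and 1.17% in controls and 1.05%, 0.861% and 0.914% in pre-treated cells, again with 2 low controls and 1 control above the treated range. In the pre-treated group the highest library exceeded the lowest by only 1.11-fold (RN7SK) to 1.71-fold (RN7SL2), whereas among the 3 controls the factor was 8.49 (RN7SK) to 18.0 (RPPH1).

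**Figure D1:**
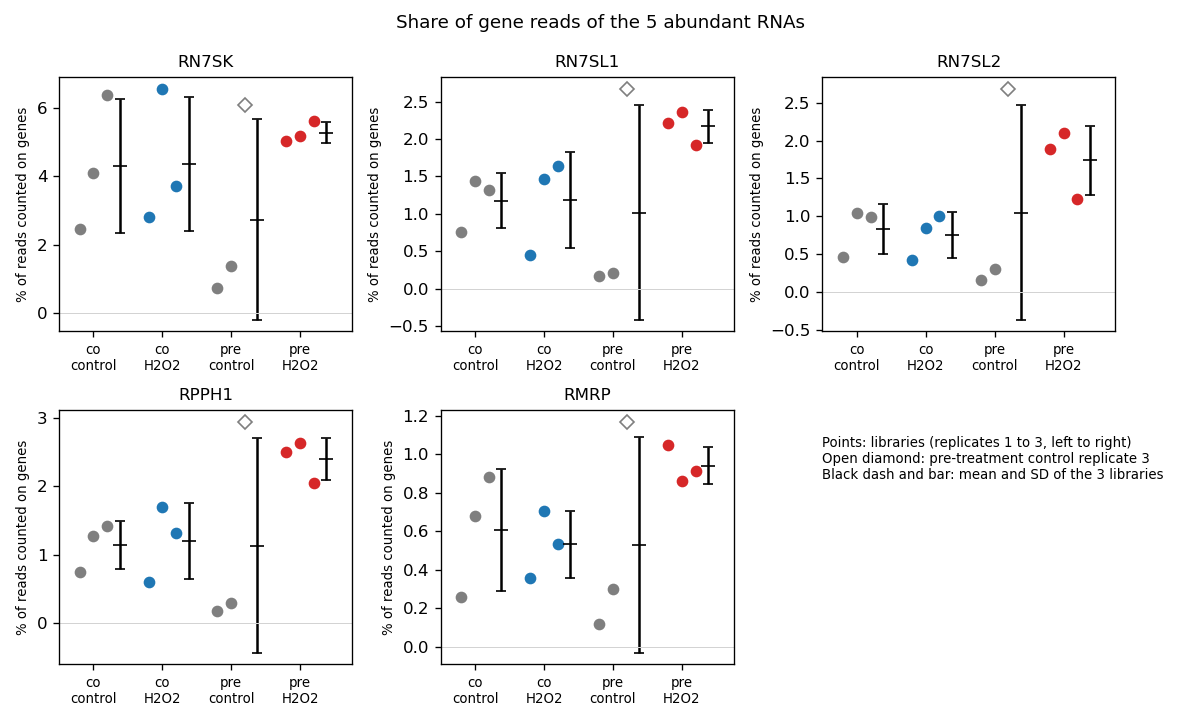
Share of gene reads (percent, linear axes) of RN7SK, RN7SL1, RN7SL2, RPPH1 and RMRP in the 12 libraries, with the mean and SD of each group of 3 beside the points. The co-treatment groups overlap in every panel, and pre-treatment control replicate 3 (open diamond) lies above the pre-treated libraries while control replicates 1 and 2 lie far below them.

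With all 6 libraries, 8 of the 10 RNAs were tested and 0 were called at an FDR under 0.05 and an absolute log2FC above 1, where 0.0242% of 24743 genes were called. The log2FC was 0.92 for RN7SL1 (standard error 1.03, FDR 0.751), 0.91 for RPPH1 (1.02), 0.82 for RN7SK (0.78), 0.70 for RMRP (0.78) and 0.56 for RN7SL2 (0.99), and none of the 8 had an unadjusted p under 0.05 (11.2% of all genes) or was called by DESeq2, limma-voom or the exact test. Without control replicate 3, 6 of the 8 RNAs tested were called and all 6 were higher in pre-treated cells, where 2.98% of 26350 genes were called higher and 11.2% in either direction. RN7SL1 rose by a log2FC of 3.75 (standard error 0.20, FDR 0.000169), a 13.4-fold difference, and RPPH1 by 3.65 (0.29, FDR 0.000869). RN7SL2 rose by 3.11 (0.37, FDR 0.00157), RN7SK by 2.54 (0.29, FDR 0.00149) and RMRP by 2.37 (0.37, FDR 0.00416). These 5 RNAs did not overlap between the groups, as was so for 29.3% of all genes tested in that direction. The whole result thus rests on whether 1 control library is counted. That library was set apart partly by its share of these same RNAs. The standard errors and FDRs without it are therefore not independent of its exclusion. With 2 controls left, their own difference also matters: without control replicate 2 the log2FC was 3.71 for RN7SL2, 3.22 for RMRP and 3.12 for RN7SK, and without control replicate 1 it was 2.71, 1.86 and 2.15. Each of these fits has 1 control library, which is assumed to vary like the pre-treated ones. Since the cells were measured in bulk, a change in the share of cells of one kind cannot be told apart from a change in RNA per cell. Nothing in the labels states that the cultures of a group were grown independently, so the p-values measure the spread between these samples.

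**Figure D2:**
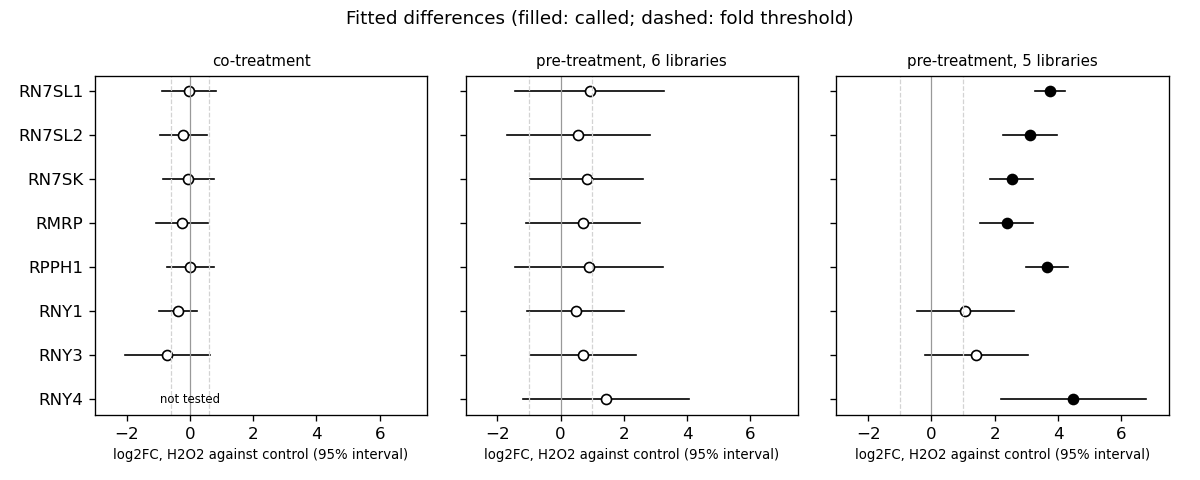
Fitted log2FC of H2O2-treated against control cells with its 95% interval for the RNAs tested, in the co-treatment comparison and in the pre-treatment comparison with 6 and with 5 libraries. Filled points were called, dashed lines mark the fold thresholds, and the called RNAs appear only in the 5-library panel, where RNY1 and RNY3 are unfilled.

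Whether the responses to the 2 exposure times differed was tested directly as the interaction of treatment and experiment, with calls at an FDR under 0.05. Over all 12 libraries, 0 of 8 RNAs tested were called (0.0287% of 24407 genes), none had an unadjusted p under 0.05 (8.94% of all genes), and neither DESeq2 nor limma-voom called any. The interaction log2FC was 0.96 for RN7SL1 (standard error 1.22) and 0.87 for RN7SK (0.95). Without pre-treatment control replicate 3, 5 of 8 were called (8.02% of 25668 genes), each with the larger response in the pre-treatment experiment. Leaving out this control again followed in part from its share of these same RNAs. The interaction log2FC was 3.73 for RN7SL1 (standard error 0.57, FDR 0.00682), 3.58 for RPPH1 (0.54), 3.26 for RN7SL2 (0.58), 2.58 for RMRP (0.62, FDR 0.0259) and 2.53 for RN7SK (0.56, FDR 0.0192). RMRP lost its call without any of co-treatment control replicate 2 or 3 (2.57 and 2.16), co-treated replicate 3 (2.57), pre-treatment control replicate 1 (2.12) or pre-treated replicate 1 (2.48). RN7SK lost its call without co-treated replicate 3 (2.42) or pre-treatment control replicate 1 (2.20). RNY4, at 4.40 (1.45, FDR 0.0710), was not called but passed in 5 alternatives: in DESeq2, without a filter on low counts, with the replicate block, and without co-treatment control replicate 1 or pre-treated replicate 3. RNY1 (1.39) and RNY3 (2.07) were not called either, and both passed without a filter, RNY1 also without pre-treatment control replicate 2 (3.26), which leaves 1 pre-treatment control.

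The Y RNAs were counted far less and behaved less evenly. RNY1 had 430, 705 and 656 reads in the co-treatment controls, 210, 897 and 560 in co-treated cells, 201, 1001 and 1963 in the pre-treatment controls and 4005, 1068 and 1515 in pre-treated cells. As a level, this was 4.09, 24.0 and 25.8 RPM in the pre-treatment controls and 40.7, 15.6 and 19.3 in pre-treated cells, so that here control replicate 2 lay with replicate 3 and not with replicate 1, and the groups overlapped. The log2FC of RNY1 was 0.48 (standard error 0.67) with 6 libraries and 1.07 (0.67, FDR 0.263) with 5. RNY3 had 5, 33 and 69 reads in the pre-treatment controls and 145, 48 and 65 in pre-treated cells, or 0.102, 0.790 and 0.906 against 1.48, 0.702 and 0.830 RPM. Its log2FC was 0.71 (0.73) with 6 libraries and 1.42 (0.71, FDR 0.171) with 5, where the groups overlapped in RPM but not in TMM-scaled CPM. Both were called without a filter on low counts. With control replicate 2 left out as well, the log2FC was 2.88 for RNY1 and 3.53 for RNY3, and both passed, but this compares the pre-treated cells with the single control replicate 1 (201 and 5 reads), and the spread comes from the pre-treated group alone. RNY3 had 18, 29 and 80 reads in the co-treatment controls and 9, 56 and 36 in co-treated cells, and its co-treatment log2FC turned to 0.42 without control replicate 3.

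**Figure D3:**
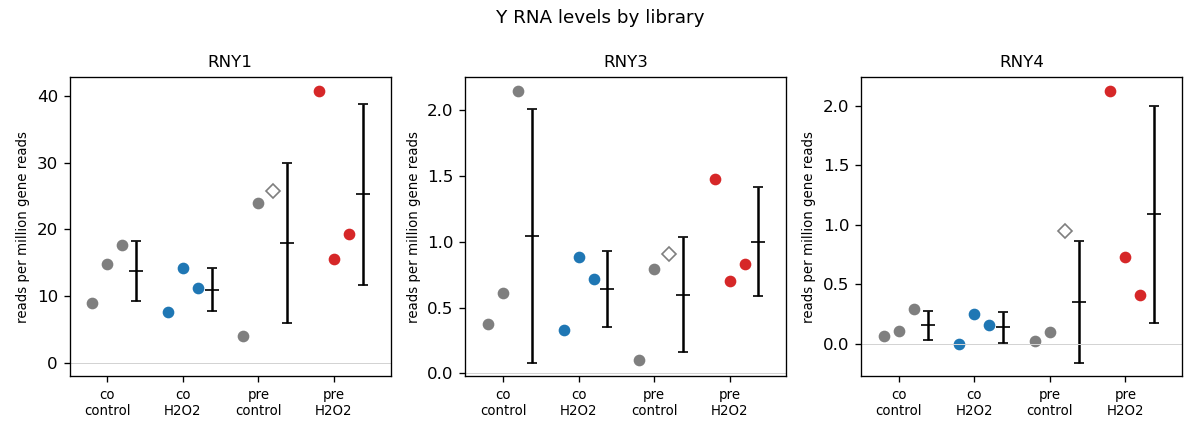
Levels of RNY1, RNY3 and RNY4 in RPM (linear axes) in the 12 libraries, with the mean and SD of each group of 3. For RNY1 the pre-treatment control replicate 2 sits at 24.0 beside replicate 3 (open diamond) at 25.8, and for all 3 RNAs the highest pre-treated library is replicate 1.

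RNY4 was close to the limit of counting. It had 3, 5 and 11 reads in the co-treatment controls and 0, 16 and 8 in co-treated cells, too few for the test, and co-treated replicate 1 with 0 reads allows a level of up to 0.109 RPM (3 counts). In the pre-treatment experiment it had 1, 4 and 72 reads in controls and 209, 50 and 32 in pre-treated cells. Without control replicate 3 it was called at a log2FC of 4.49 (standard error 1.00, FDR 0.0146), but this rests on 5 control reads. Summed over libraries, the ratio of levels was 21.6 with an exact 95% interval of 9.15 to 67.0 that covers counting error only. The call was lost in limma-voom (4.26, FDR 0.109) and without control replicate 1 (3.73) or control replicate 2 (5.88), each of which leaves 1 control, and with 6 libraries the log2FC was 1.42 (1.14).

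Of the vault RNAs, VTRNA1-1 had 10 reads in the 12 libraries together, 6 of them in pre-treated replicate 1, and at most 1 in any other library. VTRNA1-2 had 0 reads in every library, which allows a level of at most 0.0305 to 0.109 RPM depending on depth. Neither passed the filter, so no difference was detectable at this depth. Their relative VTRNA1-3 was counted in all 12 libraries, with 1.48 to 10.5 RPM. A further symbol, Vault, had 156 reads in the 12 libraries together, with 0 to 0.253 RPM in the co-treatment libraries. Its level was 0.671, 0.622 and 0.118 RPM in pre-treatment controls 1 to 3 and 0.163, 0.205 and 0.332 in pre-treated cells. MVP, the main vault protein, had 9.59 to 25.5 RPM. Its list (MVP, TEP1 and PARP4) had 0 of 3 genes called in the co-treatment comparison and in either pre-treatment comparison, with a smallest FDR of 0.506 among the 3 comparisons.

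Ratios between the RNAs within a library do not depend on library size and show whether the RNAs moved evenly. RN7SL1 per RN7SL2 was 1.64, 1.38 and 1.33 in the co-treatment controls and 1.08, 1.74 and 1.63 in co-treated cells. It was 1.10, 0.655 and 0.996 in the pre-treatment controls and 1.18, 1.13 and 1.56 in pre-treated cells, where the groups did not overlap. The mean was 0.917 ± 0.233 (SD, n = 3) in these controls and 1.29 ± 0.240 (SD, n = 3) in pre-treated cells, with an exact two-sided permutation p = 0.1, which is the smallest p that 3 against 3 can give, and 0.8 after adjustment over 12 such tests. RN7SL1 and RN7SL2 are near-identical copies, so the division of reads between them is uncertain. RN7SK per RPPH1 was 4.37, 4.90 and 2.06 in the pre-treatment controls and 2.00, 1.97 and 2.73 in pre-treated cells (exact permutation p = 0.2, two-sided), so control replicate 3 lay inside the treated range and replicates 1 and 2 outside it. RMRP per RPPH1 showed the same split, with 0.727, 1.07 and 0.396 in controls and 0.417, 0.327 and 0.446 in pre-treated cells (p = 0.3, exact permutation). RN7SL1 per RPPH1 stayed between 0.720 and 1.24 in all 12 libraries. In the co-treatment experiment the exact permutation p of the 6 ratios ranged from 0.7 to 1.

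**Figure D4:**
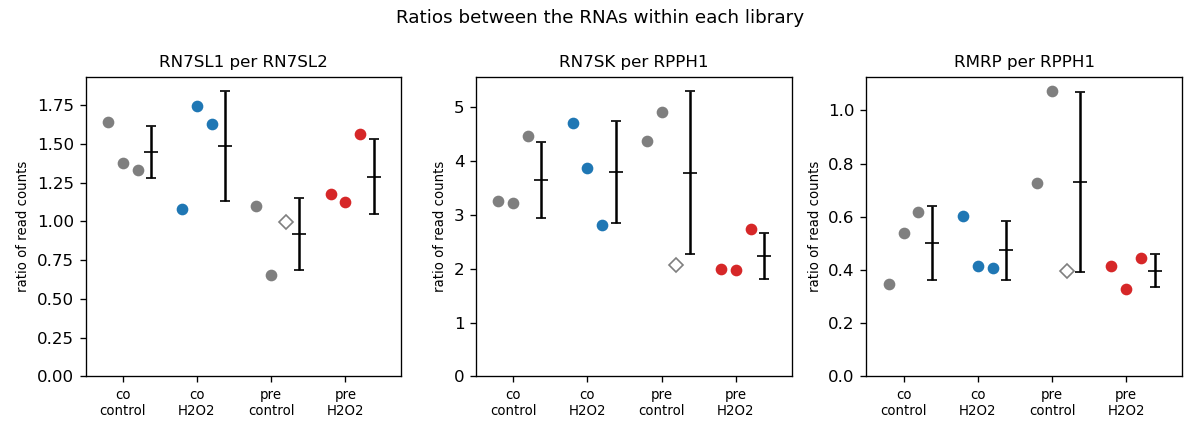
Ratios of read counts within each library (linear axes from 0) for RN7SL1 per RN7SL2, RN7SK per RPPH1 and RMRP per RPPH1, with the mean and SD of each group of 3. In the RN7SK and RMRP panels, pre-treatment controls 1 and 2 lie above the pre-treated libraries and control replicate 3 (open diamond) lies among them.

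Copies and pseudogenes of these RNAs took further reads, and since near-identical copies share reads their counts are uncertain. Reads that aligned to more than 1 place were left out of the gene counts and amounted to 0.297 to 0.599 per gene read over the libraries. The 846 symbols related to 7SL together took 10.2% to 38.4% as many reads as RN7SL1 and RN7SL2, whereas the 292 symbols related to 7SK took 0.997% to 2.78% as many as RN7SK. The 7SL-related reads fell mostly on RN7SL5P and RN7SL3. RN7SL5P varied from library to library: as TMM-scaled CPM it had 1830, 3329 and 6936 in the co-treatment controls and 12.4, 4716 and 3869 in co-treated cells. RN7SL3 had 931, 1989 and 2399 CPM in the same controls and 843, 1890 and 1700 in co-treated cells, without such a low library. In the comparison of 5 pre-treatment libraries, 2.98% of all genes were called higher. There RN7SL3 (log2FC 3.08), RN7SL5P (3.39), RN7SL4P (4.10), RN7SL128P (2.29) and RN7SL674P (2.54) were all called higher. RN7SKP230 (2.64), RN7SKP71 (3.98), RN7SKP203 (3.37), RN7SKP80 (3.39) and RN7SKP255 (2.38) were called higher as well, and none of these 10 was called in the co-treatment comparison or with 6 libraries. The co-treatment log2FC of RN7SKP71, 2.92 (standard error 0.98, FDR 0.368), came with 1 library at 591 RPM (co-treated replicate 2), against 21.5 and 26.7 RPM in the other co-treated libraries and 20.6 to 31.7 RPM in controls. The Y-related symbols went otherwise. The symbol Y_RNA, a name shared by many loci, had a log2FC of -0.32 (FDR 0.211) with 5 libraries, RNY4P17 -0.35, RNY1P6 -0.14 and RNY4P25 -1.57. Of these, RNY4P25 was called lower, where 2168 of 26350 genes were called lower. The call rests on few reads, 41 and 33 in controls 1 and 2 and 26, 14 and 18 in pre-treated cells. With 6 libraries Y_RNA had -0.14 and RNY4P25 -1.19, neither called. RNY3P1 had 5607 reads in pre-treated replicate 1 and 2894 in pre-treatment control replicate 3, but at most 5 in any other library, and was not tested with 5 libraries. RMRPP2, RMRPP3 and RMRPP4, named as pseudogenes of RMRP, had 335, 75 and 48 reads in all 12 libraries and a log2FC of -0.99, -1.36 and -1.91 with 5 libraries, none of them called. With 6 libraries RMRPP2 had -0.69 and RMRPP3 -0.91, and RMRPP4 was not tested.

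Protein partners of these RNAs were read from lists. The shares of all genes called, beside which their counts stand, were 0.598% in the co-treatment comparison and 0.0242% and 11.2% with 6 and 5 pre-treatment libraries, and the shares at an unadjusted p under 0.05 were 8.15%, 11.2% and 40.5%. Of the 8 genes for signal recognition particle proteins and the receptor, 0 were called in the co-treatment comparison or with 6 pre-treatment libraries, and 1 with 5, near the share of all genes. That gene, SRPRB, the membrane-anchored subunit of the receptor, had 24.5 and 22.2 TMM-scaled CPM in controls 1 and 2 and 50.9, 46.1 and 47.1 in pre-treated cells (log2FC 1.04, FDR 0.00181). In control replicate 3, scaled with all 6 libraries, it had 50.4 CPM, above the pre-treated range of 44.2 to 48.8. Of the 7 genes of the 7SK particle and P-TEFb, 0 were called in any of the 3 comparisons, with 1, 1 and 4 at an unadjusted p under 0.05 in the co-treatment comparison and with 6 and 5 pre-treatment libraries. HEXIM1, the inhibitor that 7SK RNA brings to P-TEFb, had a log2FC of -0.57 in the co-treatment comparison (FDR 0.266), -0.47 with 6 pre-treatment libraries (FDR 0.411) and -0.57 with 5 (FDR 0.0266), the last below the fold threshold.

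Of the RNase P and MRP protein genes, 10 of 11 were tested. RPP40 had 4.13, 3.63 and 5.71 CPM in the 3 pre-treatment controls and 7.00, 7.30 and 8.67 in pre-treated cells, so that all controls lay below all treated libraries. It was not called with 6 libraries (log2FC 0.77, FDR 0.324) and was the 1 gene of its list called with 5 (log2FC 1.00, FDR 0.00994), just past the fold threshold. In the co-treatment experiment RPP40 had 4.96, 5.38 and 5.58 CPM in controls and 7.23, 7.97 and 8.18 in co-treated cells (log2FC 0.56, FDR 0.280), again without overlap and without a call. POP5, a subunit of both enzymes, had a log2FC of 0.93 with 5 libraries (FDR 0.00342), below the fold threshold, and 0.55 with 6 (FDR 0.471). RPP21 was listed at 0 in all 12 libraries. The groups did not overlap in the higher direction for 6.65% of all genes in the co-treatment comparison and 8.24% with 6 pre-treatment libraries.

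Of the 5 genes for Y RNA-binding and La proteins, 0 were called in any of these comparisons, with 1, 1 and 3 at an unadjusted p under 0.05, where 8.15%, 11.2% and 40.5% of all genes were. NCL (nucleolin) had a log2FC of -0.68 in the co-treatment comparison (FDR 0.197), and SSB (the La protein, which binds the 3′ ends of new polymerase III transcripts) 0.67 with 6 pre-treatment libraries (FDR 0.393) and 0.98 with 5 (FDR 0.00756), short of the fold threshold. Of 11 RNA polymerase III subunits and 17 of its factors, 0 were called in the co-treatment comparison or with 6 or 5 pre-treatment libraries. An unadjusted p under 0.05 was reached by 0, 0 and 6 subunits and 0, 1 and 10 factors in these comparisons, again beside 8.15%, 11.2% and 40.5% of all genes, and 0.598%, 0.0242% and 11.2% of all genes were called. Their median log2FC with 5 libraries was 0.48 for the subunits and 0.32 for the factors, beside 0.01 for all genes tested and 2.83 for the 8 RNAs tested here.

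Other RNAs of RNA polymerase III gave values nearer to those of the 10. Of 10 listed, 9 were tested with 5 pre-treatment libraries and 6 were called, all higher, where 2.98% of all genes were called higher: RNU6ATAC (log2FC 4.68), RNU6-7 (4.89), RNY5 (4.72), RNU6-9 (2.92), RNU6-2 (2.61) and VTRNA1-3 (1.94). Several were near the limit of counting: over the 12 libraries RNU6-7 had 0 to 46 reads, RNU6ATAC 6 to 1277 and RNU6-9 9 to 386. RNU6-1 and RNU6-8 were not called. RNY5, another Y RNA, had 0 and 0.155 CPM in controls 1 and 2 and 4.02, 0.697 and 1.06 in pre-treated cells, and 1.63 in control replicate 3 when all 6 libraries were scaled together. BCYRN1, a neuronal RNA of polymerase III, had 61.3 and 67.1 CPM in controls 1 and 2 and 55.2, 54.2 and 58.1 in pre-treated cells, with a log2FC of -0.20 (FDR 0.209), and -0.09 with 6 libraries. With 6 libraries 0 of 8 tested were called, and in the co-treatment comparison 0 of 8, with a median log2FC of 1.05 and -0.62. None of these 8 had an unadjusted p under 0.05 in either comparison.

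**Figure D5:**
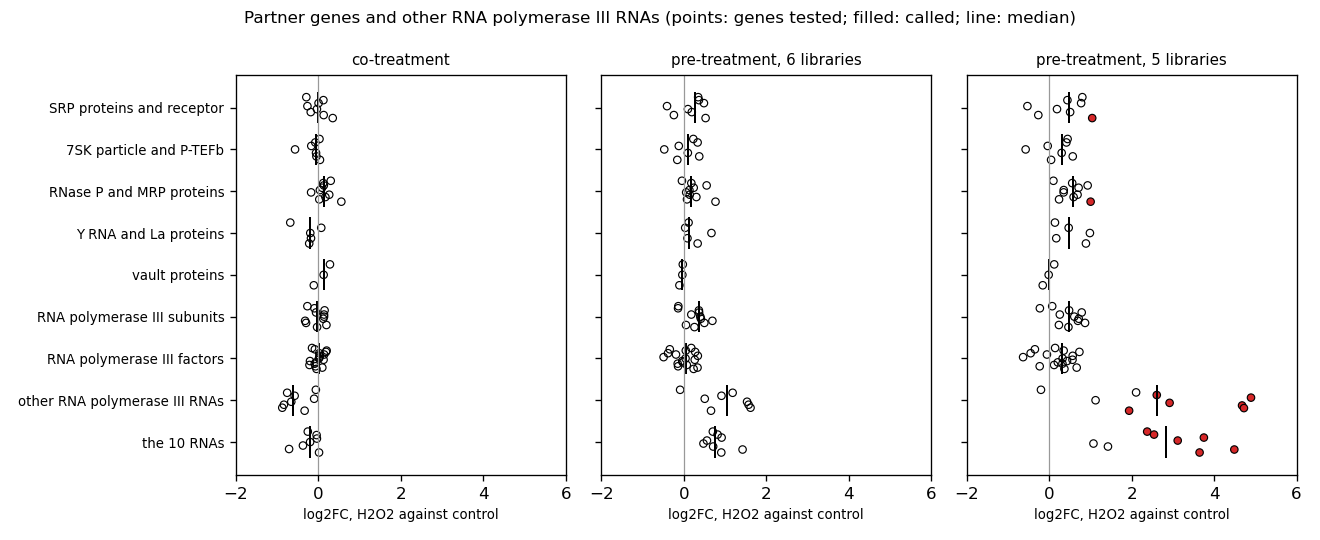
log2FC of every tested gene of the partner lists, of other RNA polymerase III RNAs and of the 10 RNAs themselves in the 3 comparisons, with calls filled and list medians as lines. Protein lists stay within about 1 log2 unit of 0, and the 2 RNA lists move away from 0 in the 5-library panel, where most of their points are called.

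No gene matched near these RNAs was called. In the comparison of 5 pre-treatment libraries, RPS29, whose intron holds RN7SL1, had a log2FC of 0.46, GSTA4 (near RN7SK) 0.45, CCDC107 -0.23 and ARHGEF39 -0.06 (both near RMRP), and none was called in that comparison, in the co-treatment comparison or with 6 libraries. The other genes near a member were not matched to a symbol in the counts here.

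The RNAs also resembled each other and other structured RNAs across libraries. Over the 12 libraries and 24407 genes, which share the same sequencing libraries and differ in depth, the genes most correlated with RN7SL1 in log2CPM were RPPH1 (Pearson r = 0.988), RN7SL3 (0.976) and SNORA12 (0.969), an H/ACA small nucleolar RNA. For RN7SK they were RN7SKP255 (0.975), FAU (0.971) and SCARNA21 (0.966), and for RMRP RN7SL767P (0.979), SNORD3B-1 (0.976) and SCARNA6 (0.975). RNY1 had r = 0.630 to RN7SL1, 0.664 to RN7SK, 0.696 to RPPH1, 0.755 to RN7SL2 and 0.820 to RMRP. These values are descriptions over 12 libraries in which the 2 low and 1 high pre-treatment controls have much weight.

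Markers of substrate-adherent, mesenchymal-type cells, the other cell type such cultures can hold, were read beside these results. Of 8 markers, 7 or 8 were above 0 in each library, with a summed level of 131 to 321 RPM in the pre-treatment controls and 222 to 297 in pre-treated cells, and PRRX1 was at or near 0 throughout (at most 6 reads). In the comparison of 5 pre-treatment libraries 4 of 7 tested were called higher (VIM, CD44, YAP1 and COL3A1), where 2.98% of all genes were called higher. VIM and COL3A1 were also called with 6 libraries, where 0.0242% of 24743 genes were called. The other 3 were not called, with a log2FC of -0.53 for FN1, -1.05 for COL1A1 and 0.27 for SNAI2. Of the 6 SH-SY5Y markers, GATA3 (-1.44) and DBH (-1.72) were called lower with 5 libraries, where 2168 of 26350 genes were called lower. They were not called with 6 (-1.07 and -1.48). With 5 libraries 3 of the 6 markers had a positive log2FC (up to 0.37) and 3 a negative one, and no other marker was called. In the co-treatment comparison VIM was called higher, 1 of 7 mesenchymal-type markers tested, where 0.598% of all genes were called. Of these 7 markers, 6 had a positive log2FC and 1 a negative one. All 6 SH-SY5Y markers had a negative log2FC (median -0.45), and 0 were called. The summed level of the mesenchymal-type markers was 104 to 243 RPM in controls and 221 to 242 RPM in co-treated cells. The part of cell composition in the differences was not tested.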

How the data were processed

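The authors sequenced ribosomal RNA-depleted total RNA (stranded TruSeq libraries, paired ends) and, per the labels and methods, checked reads with FastQC (version 0.11.8), trimmed them with Cutadapt (2.10), aligned them to hg19 with HISAT2 (2.1.0) and counted them per gene symbol with htseq-count (HTSeq 0.7.2). The deposited values are raw counts for each of 12 libraries, not normalized and not filtered. The strand setting and annotation version are not given in the sources used here. The 5 closing entries for uncounted reads were kept out of library sizes; reads outside genes came to 0.200 to 0.830 and reads with several alignments to 0.297 to 0.599 per gene read. The authors' tables of their own comparisons (log2 fold changes, average log2 CPM, p-values and FDR) were not used.

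Differences were fitted with edgeR 4.0.16 under R 4.3.3 (quasi-likelihood test, TMM factors, Benjamini-Hochberg adjustment over all genes tested). Genes entered a comparison if the CPM of 5 counts in the smallest library was reached in at least the number of libraries of the smaller group. Shares and RPM are relative to all gene reads of a library, without TMM. The FDR threshold was 0.05, joined in the treatment comparisons by a fold threshold on the log2 scale of 0.6 for co-treatment and 1 for pre-treatment. Alternatives were DESeq2 1.42.0, limma-voom (3.58.1), edgeR's exact test, other scalings and filters, robust estimation, 1 fit over both experiments, a replicate block and each library left out. The fit was tested on simulated data. Ratios were compared with exact permutation tests. log2CPM for correlations used a prior count of 2.

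The members, gene lists, related loci and tests were chosen with earlier results of these data known. Named genes are the 10 members, partner genes called in a comparison or among its 3 smallest p-values, the 5 most counted symbols of each related family (fewer where fewer had counts), genes within 1 kb of a member, and the 3 genes most correlated with RN7SL1, RN7SK and RMRP. Other genes named, such as POP5, VTRNA1-3, RNY5, BCYRN1 and MVP, were singled out after their values were seen. Positions and sequences come from hg19 with a GENCODE annotation (version 44) lifted to it. For RN7SL1, found with blastn 2.17.0, and for RN7SL2 and RNY3, sequence and position are not reported here. Promoter windows for motif shares are RefSeq's on GRCh38.p14, with 0 entries for the 10 genes. The exact interval of RNY4 and the floor of 3 counts cover counting error only. Intervals of the fitted log2FC come from the quasi-likelihood fit and include the spread between libraries.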

Additional observations from a re-analysis of the deposited data

Results flagged for a closer look

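For 5 RNAs the response to H2O2 differed between the pre-treatment and co-treatment experiments in the interaction test of edgeR over 11 libraries, without pre-treatment control replicate 3. The interaction log2FC was 3.73 for RN7SL1, 3.26 for RN7SL2, 2.53 for RN7SK, 2.58 for RMRP and 3.58 for RPPH1. With that control counted, the same differences were 0.96, 0.77, 0.87, 0.96 and 0.90 and none was called. That control was set apart partly by its share of these same RNAs, so the calls without it are not independent of its exclusion.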

How the results depend on the processing

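The number of the 10 RNAs called stayed at 0 in the co-treatment comparison under every alternative run, and in the pre-treatment comparison with 6 libraries it became 6 without control replicate 3 and was 0 to 6 over the libraries left out. With 5 libraries it was 5 to 8 over all alternatives. For the difference between experiments over 12 libraries it became 5 without pre-treatment control replicate 3 and was 0 to 5 over the libraries left out. Over 11 libraries it was 8 without a filter, 3 with robust estimation (RN7SK and RMRP lost) and 3 to 6 over the libraries left out, with 3 without co-treated replicate 3 or pre-treatment control replicate 1. Uncalled values of the co-treatment comparison changed sign with library size as the only scaling (0.0176 for RN7SL1 and 0.0177 for RN7SK) and, for RPPH1, co-treatment, in limma-voom (-0.0683) and with the replicate block (-0.0586). Over the libraries left out they ranged from -0.32 to 0.35 for RN7SL1, -0.51 to 0.0897 for RN7SL2, -0.50 to 0.41 for RN7SK, -0.63 to 0.17 for RMRP, -0.34 to 0.34 for RPPH1 and -1.14 to 0.42 for RNY3, and RNY1 with 6 pre-treatment libraries from -0.0751 to 1.07. The cause of these moves was not tested. Same-numbered libraries did not deviate together over all genes (residual r -0.28 to 0.07). With so few libraries per group, such residuals cannot decide whether the numbers pair the samples. In the co-treatment experiment, replicate 1 was the lowest library of both groups for RN7SK, RN7SL1 and RPPH1. The replicate block left 0, 0, 6, 0 and 6 of the RNAs called in the 5 comparisons in the order above.

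Counts of calls over all genes moved by more than 1.5 times under several alternatives: 3 to 443 in the co-treatment comparison (132 as reported), 0 to 2952 with 6 pre-treatment libraries (6), 1064 to 6871 with 5 (2952), 0 to 2058 over 12 libraries (7) and 321 to 4499 over 11 (2058). With library size as the only scaling, the median log2FC of all genes was -0.23 over 11 libraries (-0.02 as reported) and -0.21 with 5 (0.01). The split of higher and lower calls moved from 784 and 2168 to 399 and 3014 with 5 libraries. It moved from 74 and 58 to 57 and 23 in the co-treatment comparison. Over 11 libraries it moved from 852 and 1206 to 329 and 1784. Leaving small structured RNAs out of the scaling gave 1276 and 1126 there. Counting over reads outside small structured RNAs raised the mean share in pre-treated cells to 6.15% for RN7SK, 2.54% for RN7SL1, 2.81% for RPPH1 and 1.10% for RMRP. Low counts limit the results for RNY3, RNY4, VTRNA1-1 and VTRNA1-2, and the part of depth in these counts was not tested.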
